A study of Mus musculus with 4 samples.

Results

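The chemokine receptor gene Cxcr6 and the gene of its ligand, Cxcl16, were followed across the sorted immune cells of mouse mammary tumours. Both were chosen by name as receptor and ligand, and they are 2 of the 11407 genes in the deposited expression tables. CXCR6 is a G protein-coupled receptor on activated and tissue-resident T cells, NKT cells and innate lymphoid cells. CXCL16 is made as a membrane-anchored protein on macrophages, dendritic cells and some epithelial and endothelial cells, where it can tether cells that carry CXCR6 and take up oxidised lipoprotein, and proteases of the ADAM family can shed it as a soluble chemoattractant. In tumours the pair is known for holding cytotoxic T cells close to myeloid cells that present cytokines such as interleukin 15.

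The IL-12 group is the pool of tumours injected with a plasmid for interleukin 12 (IL-12), a cytokine known for inducing interferon-gamma in lymphocytes, and the control group is the pool injected with a control plasmid. All tumours of both groups were electroporated after the injection. The labels differ on the control, whose cells carry the treatment label Isotype in the receptor data, where those of the other group carry IL-12. Live CD45-positive cells, that is leukocytes, came from 3 pooled mice in each group, and expression (5′ tags) and T cell receptors were sequenced once from each pool. The source labels differ on the tumours: title and design text speak of triple-negative tumours, the library names carry 4T1, the name of a BALB/c mammary carcinoma line, and the growth protocol describes tumours that arose after HER2 was induced in the mammary tissue of mice 1 month old; strain and HER2 promoter are not given. Whichever applies, it was shared by both groups.

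With 1 library per treatment no difference between treatments has a replicate check, no test was made, and every interval below is a 95% interval of counting error only. The IL-12 library held 12979 cells with a median of 3418 unique molecular identifiers (UMIs, each 1 captured transcript), and the control library held 4232 cells with a median of 3021. Levels are UMIs of a gene per 1000000 UMIs of the same cells (CPM), read from transcript 5′ ends and so not scaled by transcript length. The authors' classes put 25.1% of IL-12 cells and 15.3% of control cells among CD8 T cells, 7.69% and 4.23% among CD4 T cells, 13.1% and 13.6% among macrophages, and 45.5% and 64.3% among neutrophils. The libraries shared 87 cell barcodes.

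Checked against their defining markers, the CD8 T cell, neutrophil and macrophage classes held those of their names, although 6 neutrophil markers also summed to 10640 CPM in IL-12 and 7199 CPM in control CD8 T cells. Other classes did not. The class called DCs held 842 IL-12 cells and 14 control cells. Its 8 dendritic markers summed to 101 CPM in the IL-12 library and 120 CPM in the control library, against 1627 and 1343 CPM in the class called B cells, while 49.6% of its IL-12 cells held a Cd3e UMI, Cd3e being a chain of the T cell receptor complex. It is therefore called cluster 11 here, after the authors' numbering. The class called B cells (cluster 13) summed to 1456 CPM of B cell markers in the IL-12 library and 1493 CPM in the control library beside those dendritic markers, and is called cluster 13. The class called CD4 T cells held a Cd8a or Cd8b1 UMI in 640 of 998 IL-12 cells and 95 of 179 control cells. It keeps that name below as the authors' class, not as a cell type set by Cd4.

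On GRCm38 (mm10), Cxcr6 (ENSMUSG00000048521) is a protein-coding gene on the plus strand of chromosome 9, from 123806475 to 123811760, with 1931 exonic bases. It lies within the span of Fyco1, a gene of the minus strand that encodes an adaptor of vesicle transport, and shares 0 exonic bases with it. Cxcl16 (ENSMUSG00000018920) is a protein-coding gene on the minus strand of chromosome 11, from 70453983 to 70459984, with 3021 exonic bases. Its 5′ end overlaps Zmynd15, a plus-strand gene, over 552 exonic bases. Whether counting used strand is not stated. Zmynd15 itself was counted at 0.175 UMIs per Cxcl16 UMI in IL-12 macrophages and 0.114 in control macrophages. If strand was not used, reads of the shared stretch cannot be told apart.

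Cxcr6 was a transcript of T cells in both libraries. CD8 T cells held 84.7% of all Cxcr6 UMIs of the IL-12 library and 88.5% of those of the control library. Their level was 700 CPM (95% interval 689 to 711) in 3264 IL-12 cells and 490 CPM (468 to 512) in 649 control cells. The most Cxcr6 UMIs in a single cell were 40 in the IL-12 library and 25 in the control library, both among CD8 T cells. CD4 T cells followed, with 551 CPM (523 to 580) in IL-12 cells and 342 CPM (293 to 398) in control cells. Cluster 11 aside, macrophages came next with 64.6 CPM in IL-12 and 11 CPM in control. Cluster 13 cells held 18.8 CPM in IL-12 and 3.49 CPM in control, and neutrophils 14.0 and 3.61 CPM, so the order of these sets differed between the libraries. The intervals of cluster 13 overlapped those of neutrophils in both libraries and, in the control library, those of macrophages as well.

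At single-cell resolution a Cxcr6 UMI was found in 84.7% of IL-12 CD8 T cells (83.4% to 85.9%) and 70.6% of control CD8 T cells (66.9% to 74.1%), at median depths of 6434 and 5794 UMIs per cell. Thinned to 1000 UMIs per cell, with no cell left out, these shares were 45.3% and 34.8%. Neutrophils, which are not known to express the receptor, held a Cxcr6 UMI in 4.03% of IL-12 cells and 0.662% of control cells, at median depths of 2553 and 2524 UMIs. That neutrophil share is the background against which low shares elsewhere are to be read, and it was itself higher in the library with more T cells.

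By the authors' clusters, Cxcr6 was highest in cluster 5 of the IL-12 library, with 783 CPM (769 to 796) in 2488 cells, and in cluster 8 of the control library, with 520 CPM (496 to 545) in 572 cells. These clusters hold most CD8 T cells of their own library and few of the other: cluster 5 had 21 control cells and cluster 8 had 67 IL-12 cells. In the IL-12 library cluster 9, the CD4 T cell class in the main, came next with 548 CPM (520 to 577), followed by cluster 8 with 477 CPM (400 to 564), whose interval overlapped both neighbours, and cluster 12 with 473 CPM (455 to 490). In the control library cluster 9 with 348 CPM (299 to 404) and cluster 12 with 285 CPM (238 to 339) followed cluster 8, with overlapping intervals. Cluster 11 held 262 CPM in 837 IL-12 cells and 274 CPM in 19 control cells, whose interval ran from 154 to 453 CPM. The neutrophil clusters 2 and 7 held 17.8 and 11.6 CPM in the IL-12 library. In the control library cluster 7 held 2.57 CPM and cluster 2 had 0 UMIs of Cxcr6 in 427 cells, where a floor of 3 counts stands at 3.95 CPM.

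**Figure D1:**
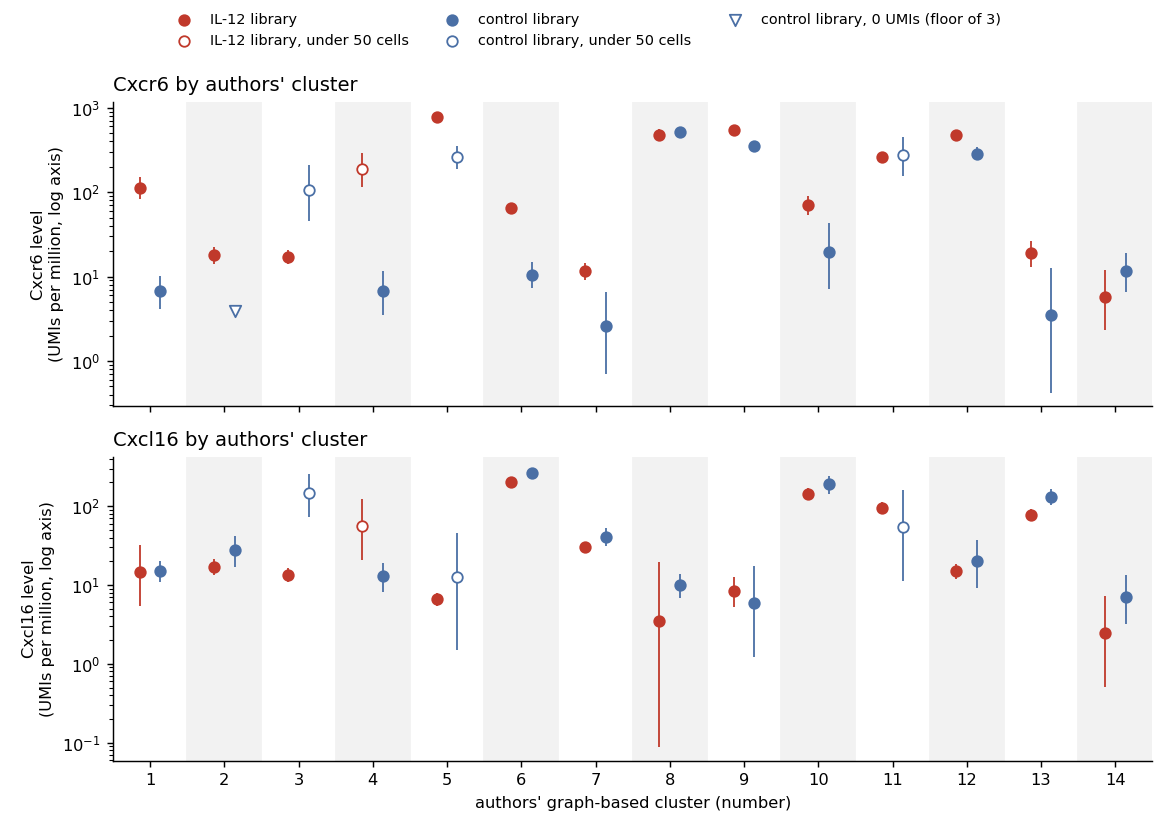
Cxcr6 (top) and Cxcl16 (bottom) in each of the authors' clusters, in CPM on a log axis, with IL-12 in red and control in blue; bars are exact Poisson 95% intervals, open points are clusters with under 50 cells in that library, and a triangle marks 0 UMIs drawn at the floor of 3 counts. Cxcr6 stands highest in clusters 5, 8, 9 and 12, and Cxcl16 in clusters 6 and 10, at 200 and 143 CPM in the IL-12 library and 266 and 189 CPM in the control library.

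Within the T cell classes the level of Cxcr6 differed between some sets of cells taken by marker UMIs. CD8 T cells with a UMI of Tcf7, the transcription factor TCF1 of naive and stem-like T cells, held 359 CPM of Cxcr6 in 184 IL-12 cells and 191 CPM in 72 control cells. CD8 T cells without a Tcf7 UMI held 723 CPM in IL-12 cells and 527 CPM in control cells, so the gene was lower in the Tcf7-bearing cells of each library. T cells with a UMI of Foxp3, the regulatory T cell factor, held 193 CPM in 154 IL-12 cells; 20 such control cells held 3 Cxcr6 UMIs, or 36.0 CPM. T cells with a UMI of an NK cell marker held 733 CPM in IL-12 cells and 498 CPM in control cells, close to the CD8 T cells as a whole.

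Cxcr6 was higher in the IL-12 library in all sorted cells, and by less in CD8 T cells. Over all sorted cells the level was 319 CPM (315 to 324) in the IL-12 library and 127 CPM (122 to 132) in the control library, a 2.52-fold difference (2.41 to 2.63). The log2 ratio of 1.32 lay above that of 98.3% of the 5366 genes measured there, of which 14.4% were 1.5-fold or more higher in IL-12 and 24.3% as much lower, or 19.03% and 18.99% by the median of ratios. Giving each class its share of the control library, a weighting added after the data were seen, left a 1.55-fold difference. In CD8 T cells the ratio was 1.43-fold (1.36 to 1.50), under the 1.5-fold mark that 12.2% of 6855 measured genes passed upwards and 38% downwards. The median log2 ratio of those genes was -0.31, so the 0.51 of Cxcr6 lay above 86.3% of them. Scaled by the median of ratios instead, 23.7% of these genes were 1.5-fold or more higher and 22.4% lower, and Cxcr6 was higher by a log2 ratio of 0.84.

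The IL-12 over control ratio of CD8 T cells depended on which cells were set side by side. In cluster 8, the only CD8 T cell cluster besides 12 with at least 50 cells in both libraries, Cxcr6 stood at 477 CPM in IL-12 and 520 CPM in control cells, a ratio of 0.917 (0.765 to 1.09), with 13.2% of 5676 measured genes there 1.5-fold or more higher and 24.6% lower. Its direction was not stable: the log2 ratio of -0.12 became 0.14 as a mean over cells and 0.25 without cells that held 2 or more macrophage markers. In cluster 12, whose cells also carry neutrophil transcripts, it stood at 473 CPM in 706 IL-12 cells and 285 CPM in 54 control cells, a ratio of 1.66 (1.39 to 1.99), against 17.5% of 6246 genes higher and 29.1% lower. Its log2 ratio of 0.73 became 0.23 (-0.66 to 1.29) without the 5% highest Scrublet doublet scores, an alternative chosen after seeing the data, so the 1.5-fold call was lost, and 1.09 (0.70 to 1.52) without cells that held 2 or more macrophage markers. Cells taken by their own UMIs of Cd3 and Cd8 genes with no Cd4 UMI, whatever their class, held 662 CPM in 4339 IL-12 cells and 532 CPM in 612 control cells, a ratio of 1.24 (1.19 to 1.31). C1qa, a macrophage complement gene, stood at 156 CPM in IL-12 and 86.3 CPM in control cells of that set, against 103 and 45.9 CPM in the CD8 T cell class. Clusters 5 and 8, each drawn almost wholly from a single library, may mark the library rather than a cell type.

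The class called CD4 T cells held 1.61 times as much Cxcr6 in IL-12 as in control cells (1.37 to 1.90). In that class 15.9% of 4644 measured genes were 1.5-fold or more higher and 16.5% lower, and Cxcr6 lay above 88.0% of them. Cells with Cd3 and Cd4 UMIs and no Cd8 UMI, whatever their class, held 379 CPM in 219 IL-12 cells and 176 CPM in 78 control cells, a ratio of 2.15 (1.64 to 2.88). Their C1qa level was 246 CPM in IL-12 and 20.9 CPM in control cells, against 76.5 and 48.3 CPM in the CD4 T cell class; its part in the ratio was not tested. Within the class, cells with a Cd4 and no Cd8 UMI held 409 CPM of Cxcr6 in 96 IL-12 cells and 146 CPM, on 10 UMIs, in 28 control cells, a ratio of 2.80 (1.47 to 5.98). In cluster 9 alone the levels were 548 CPM in IL-12 and 348 CPM in control, a ratio of 1.57 (1.34 to 1.85), with 15.7% of 4667 measured genes higher and 16.9% lower. A Cxcr6 UMI was found in 51.5% of IL-12 and 38.5% of control CD4 T cells.

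The Cxcr6 UMIs of macrophages moved with T cell transcripts. Macrophages held 64.6 CPM (60.1 to 69.3) in 1702 IL-12 cells and 11 CPM (7.85 to 15) in 574 control cells, 5.88-fold (4.28 to 8.30), where 10.8% of 6328 measured genes were 1.5-fold or more higher and 20.8% lower, or 14.52% and 15.25% by the median of ratios. The 6 CD8 T cell markers, all found in both libraries, summed to 454 CPM in IL-12 macrophages and 101 CPM in control macrophages. In macrophages with a Cd3 UMI, Cxcr6 was 158 CPM in 584 IL-12 cells and 43.5 CPM in 90 control cells, and in those without, it was 7.40 CPM in 1118 IL-12 cells and 3.39 CPM in 484 control cells. Macrophages that also carried a T cell receptor clone held 290 CPM in 174 IL-12 cells and 202 CPM in 12 control cells, and those with none held 22.0 CPM in 1528 IL-12 cells and 3.43 CPM in 562 control cells, 6.43-fold (3.61 to 12.6). Cxcr6 UMIs per Cd3e UMI were 0.680 in IL-12 and 0.506 in control macrophages, and 0.647 and 0.597 in CD8 T cells. Neutrophils without a Cd3 UMI held 12.99 CPM in IL-12 and 1.99 CPM in control. The part of T cell transcripts in the macrophage ratio was not tested. That log2 ratio, 2.45, was 0.94 without cells with a Cd3 UMI and, by an alternative added later, 3.29 without the 5% highest Scrublet scores.

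**Figure D2:**
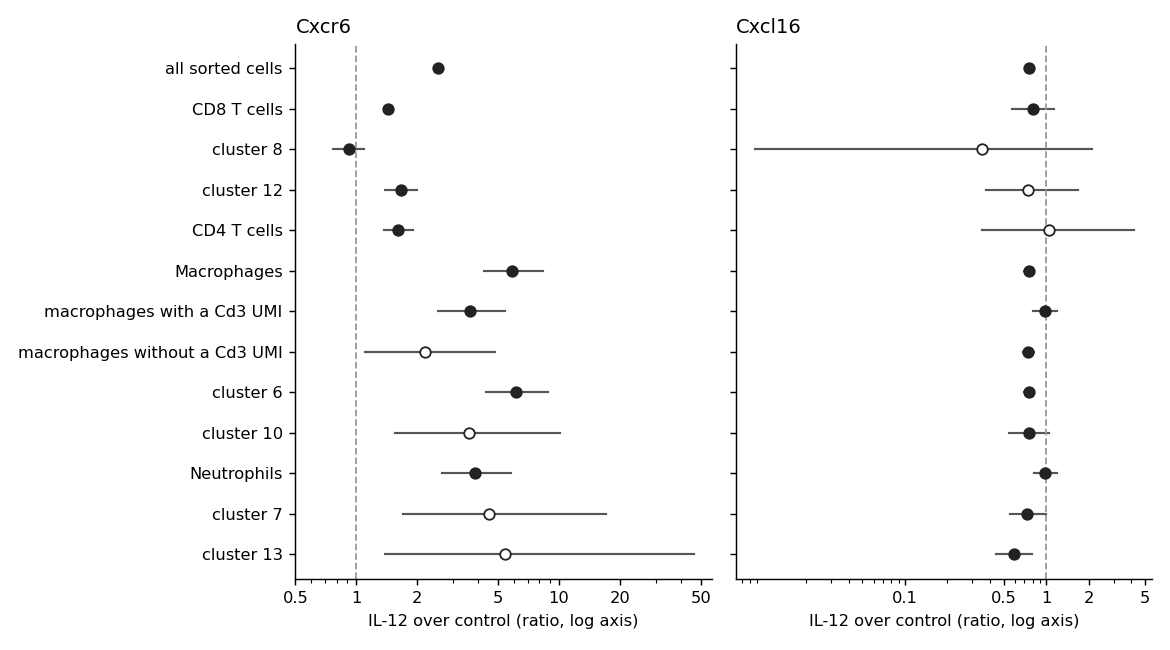
IL-12 over control ratio of Cxcr6 (left) and Cxcl16 (right) in all sorted cells, classes, clusters and sets of cells taken by marker UMIs, on a log axis with exact 95% intervals; open points have under 20 UMIs in 1 library and the vertical line is a ratio of 1. The Cxcr6 ratio is 2.52 in all cells, 1.43 in CD8 T cells and 0.917 in cluster 8, while the Cxcl16 ratio is 0.751 in macrophages and 0.982 in neutrophils.

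Among CD8 T cells with a recorded receptor, Cxcr6 was lowest where that receptor was seen in 1 cell. A clone here is a receptor clonotype of the authors' tables, and its size is the number of cells of the library that carry it. Among IL-12 CD8 T cells, Cxcr6 was 432 CPM (406 to 459) in 331 cells of single-cell clones and 694 CPM (648 to 743) in clones of 2 to 4 cells. It was 769 CPM in clones of 5 to 9 cells, 654 CPM at 10 to 19, 746 CPM at 20 to 99 and 798 CPM (782 to 814) in the 5 clones of 100 or more cells, which held 1776 cells. The step between single cells and clones of 2 to 4 was 1.61-fold (1.47 to 1.76), and that between clones of 2 to 4 and of 10 or more was 1.13-fold (1.05 to 1.21).

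Control CD8 T cells had a like first step, and beyond it the levels lay between 535 and 689 CPM. Cxcr6 was 411 CPM (369 to 456) in 134 cells of single-cell clones and 676 CPM (609 to 749) in clones of 2 to 4 cells, 1.65-fold (1.42 to 1.91). It was 536 CPM at 5 to 9 cells, 689 CPM at 10 to 19, 535 CPM in the only clone of 20 to 99 and 554 CPM (493 to 619) in the only clone of 100 or more. Clones of 10 or more cells held 0.875 times the level of clones of 2 to 4 cells (0.769 to 0.997). Over single-cell clones, clones of 10 or more cells were 1.81-fold higher (1.70 to 1.93) in the IL-12 library, where 9.45% of 8128 measured genes were 1.5-fold or more higher and 10.1% lower, and 1.44-fold higher (1.26 to 1.65) in the control library, where 9.1% of 4208 were higher and 7.63% lower. Cells of a clone share their mouse and library and are not replicates, and the control library had 6 clones of 10 or more cells against 23 in the IL-12 library.

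Within clusters, clones of 10 or more cells also held more Cxcr6 than single-cell clones in most cases. In the IL-12 library the ratio was 1.64 (1.53 to 1.76) in cluster 5 and 2.38 (2.03 to 2.80) in cluster 12, but 0.708 (0.328 to 1.65) in the few cells of cluster 8. In the control library it was 1.36 (1.18 to 1.56) in cluster 8 and 2.19 (1.31 to 3.76) in cluster 12. Between clones of 2 to 4 and of 10 or more cells of IL-12 cluster 5, the ratio was 1.04 (0.961 to 1.12). CD8 T cells with no receptor clone recorded held 479 CPM (456 to 504) in 447 IL-12 cells, above single-cell clones, and 333 CPM (299 to 369) in 200 control cells, below them, with overlapping intervals in both libraries. Among CD4 T cells, clones of 10 or more cells held 2.34 times the Cxcr6 level of single-cell clones in the IL-12 library (2.0 to 2.74). In the control library it was 2.56 times (1.17 to 6.03), where each of these sets had 13 cells. Clone size counts cells of every class, so these clones can also hold CD8 T cells. Of the 226 IL-12 cells, 159 lay in 5 clones of 100 or more cells, and CD8 T cells also held 5 clones of that size. Of the 13 control cells, 8 lay in 1 such clone, and CD8 T cells also held 1. The part of clones shared with CD8 T cells was not tested.

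At equal clone size in cells, the interval of the difference between libraries held 1 in some sizes and lay above 1 in others. CD8 T cells with a clone numbered 2817 in the IL-12 library and 449 in the control library. A clone of a given number of cells was thus a larger share of the control cells, so expansion itself was not matched. The IL-12 over control ratio of Cxcr6 was 1.05 (0.93 to 1.19) in single-cell clones, 1.03 (0.907 to 1.16) in clones of 2 to 4 cells and 0.95 (0.811 to 1.12) in clones of 10 to 19. It was 1.44 (1.23 to 1.68) at 5 to 9 cells, 1.39 (1.15 to 1.71) at 20 to 99 and 1.44 (1.29 to 1.62) at 100 or more. The last 2 sizes rest on 1 control clone each. CD8 T cells with no clone recorded had a ratio of 1.44 (1.28 to 1.62).

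Clones of like size differed from each other. The 19 IL-12 clones with at least 10 CD8 T cells spanned 402 to 1105 CPM of Cxcr6, with a median of 600 CPM, and the 6 such control clones spanned 508 to 812 CPM, with a median of 588 CPM. The IL-12 clones with the most CD8 T cells, 623 and 590, stood at 586 CPM (565 to 608) and 973 CPM (942 to 1004). A Cxcr6 UMI was found in 87.8% and 95.3% of those cells. The next, of 258 and 235 cells, stood at 888 CPM and 895 CPM. In the control library the largest clone of 90 CD8 T cells held 554 CPM and the second of 36 cells held 535 CPM (438 to 646). The ranges of the libraries overlapped, and the highest clones were those of the IL-12 library.

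**Figure D3:**
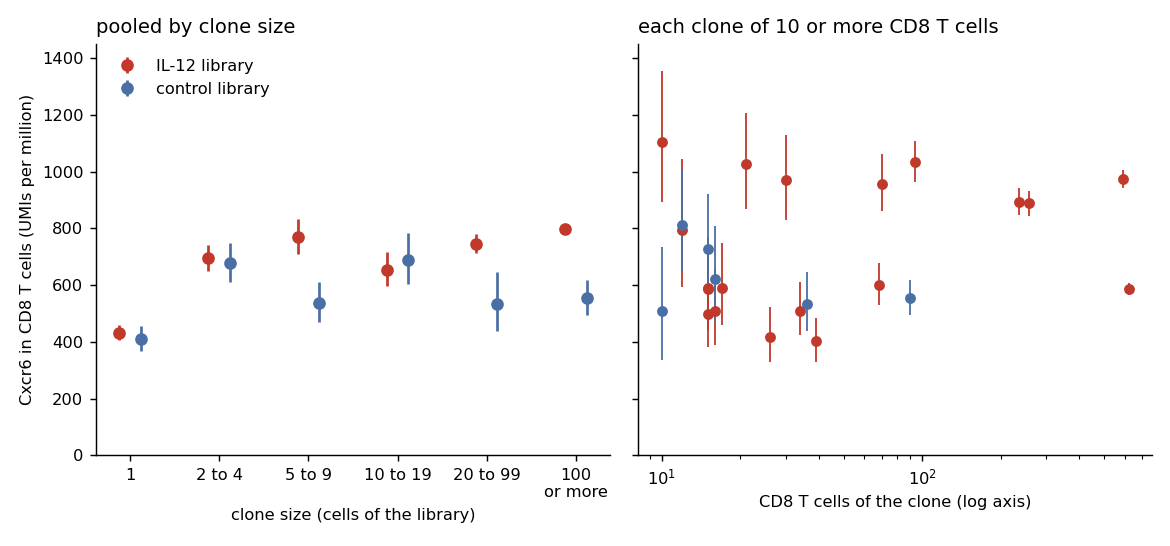
Cxcr6 in CD8 T cells by clone size (left) and in single clones with at least 10 CD8 T cells (right), in CPM with exact Poisson 95% intervals, with IL-12 in red and control in blue. Single-cell clones lie at 432 CPM in IL-12 and 411 CPM in control, every larger size lies above them in its own library, if with overlapping intervals for the control clone of 36 cells, and single IL-12 clones range from 402 to 1105 CPM.

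Cell cycle phase, as the authors' receptor table gives it, left Cxcr6 nearly level. IL-12 CD8 T cells held 720 CPM in G1, 736 CPM in S and 734 CPM in G2M, and control CD8 T cells held 531, 537 and 570 CPM, with overlapping intervals between the phases of each library.

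CD8 T cells with and without a Cxcr6 UMI were then compared within each library, 2764 with 500 cells in IL-12 and 458 with 191 in control. Median depths were 6492 and 6079 UMIs in IL-12 and 5860 and 5599 in control; a cell without a UMI may still express the gene. Among 8510 measured genes in IL-12 CD8 T cells, 6.86% were 1.5-fold or more higher and 9.61% lower in the cells with Cxcr6, and in control CD8 T cells, with 5913 genes, these shares were 7.46% and 7.17%. The highest genes over both libraries were granzymes of the cluster beside Gzmb and genes of chronically stimulated T cells. Gzme, Gzmf and Gzmd, cytotoxic proteases, were 3.36, 2.99 and 3.62 times as high in IL-12 cells with Cxcr6, and 7.22, 3.13 and 2.64 times in control cells. These are near-identical copies among which counting can split reads, so the split between them is uncertain. Gzmf, for one, stood at 419 CPM in IL-12 cells with Cxcr6 and 140 CPM in those without, and at 399 CPM and 127 CPM in the control library. Among cells of 3000 to 8000 UMIs the ratio of Gzme was 6.11 in IL-12, and in control cells, on 3 UMIs each without Cxcr6, those of Gzme and Gzmd were 18.1 and 23.3; that of Gzmf was 2.06 there, and 5.54 in IL-12 cells outside cluster 12. The inhibitory receptor genes Havcr2 (TIM-3) and Lag3 were 2.40 and 1.93 times as high in IL-12 cells with Cxcr6, and 2.87 and 2.0 times in control cells. Cd8a itself was 1.97 times as high in the IL-12 library and 2.11 times in the control library. Nrn1 (neuritin), Calca (the calcitonin gene-related peptide), Gldc (a glycine cleavage enzyme) and Mt1 (a metallothionein) completed the 10 highest.

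Genes of recirculating T cells were lower beside Cxcr6. Of the circulation and stem-like list, 10 of 12 genes with at least 20 UMIs were 1.5-fold or more lower in IL-12 cells with a Cxcr6 UMI and 0 higher, and in the control library 8 of 10 were lower and 1, Cx3cr1, was higher. Over all genes measured 9.61% were lower and 6.86% higher in IL-12, and 7.17% and 7.46% in control. The median log2 ratio of the list was -0.87 in IL-12 and -1.09 in control, beside medians of 0.02 in both libraries over all genes measured. S1pr1, the receptor by which T cells leave tissue, held 6.57 CPM with and 21.7 CPM without Cxcr6 in IL-12 cells, and 6.68 CPM with and 89.99 CPM without in control cells. Outside cluster 12 the IL-12 values were 6.73 CPM with and 12.5 CPM without, a ratio of 0.540 in place of 0.303. Klf2, the transcription factor that drives it, held 70.9 CPM with and 194 CPM without in IL-12 cells, and 58.3 CPM with and 204 CPM without in control cells. Tcf7 stood 0.284 times as high beside Cxcr6 in IL-12 cells and 0.363 times in control cells.

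**Figure D4:**
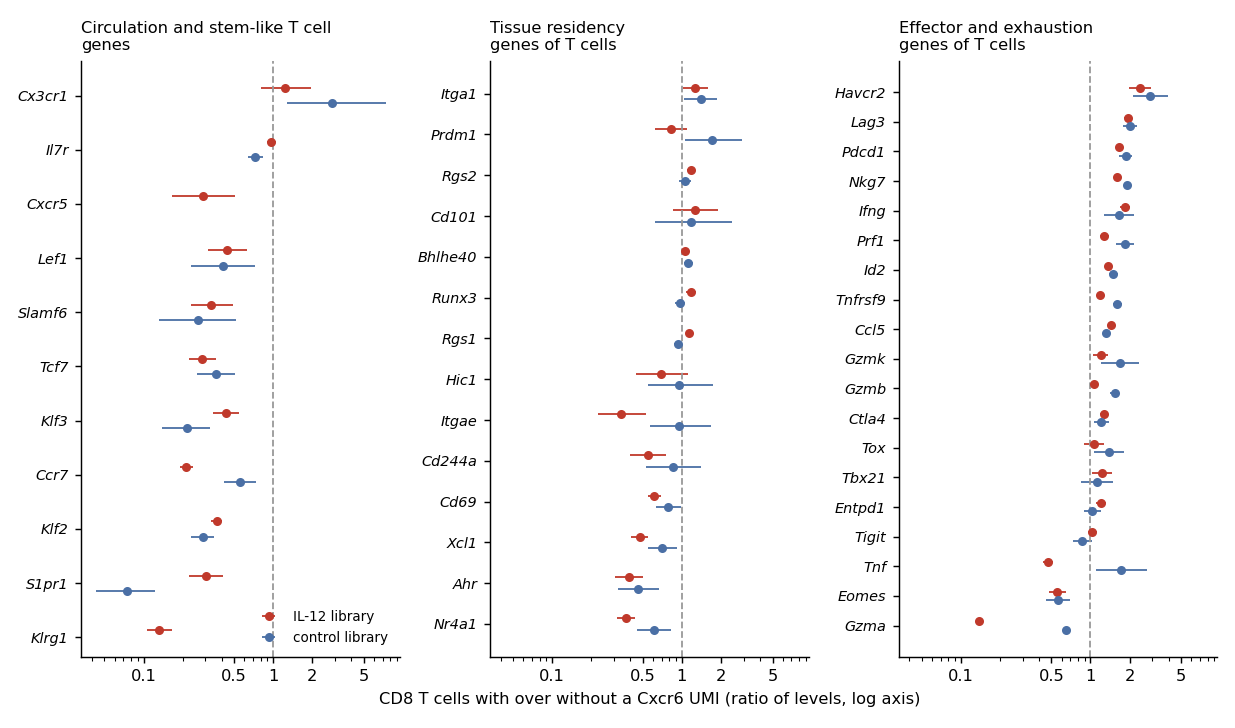
Ratio of levels in CD8 T cells with over without a Cxcr6 UMI for genes of the circulation and stem-like list (left), the tissue residency list (middle) and the effector and exhaustion list (right), within the IL-12 library (red) and the control library (blue), on a log axis with exact 95% intervals and a dashed line at 1. S1pr1, Klf2 and Tcf7 lie below 1 and Havcr2, Lag3 and Pdcd1 above 1 in both libraries, while Gzma lies at 0.137 in IL-12 and 0.644 in control.

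Other genes that were low beside Cxcr6 included Gzma, a granzyme outside that cluster, which held 337 CPM with and 2459 CPM without Cxcr6 in IL-12 cells, and 1210 CPM with and 1880 CPM without in control cells; the control ratio of 0.644 was 0.320 among cells of 3000 to 8000 UMIs. Il1rl1, the interleukin 33 receptor, was 0.169 times as high with Cxcr6 in the IL-12 library and 0.171 times in the control library. The NK receptor gene Klra3, of a family of close copies, and Izumo1r (folate receptor 4) were low in both libraries too. The neutrophil granule gene Ngp, at 167 CPM with and 1071 CPM without Cxcr6 in IL-12 cells, belonged to cluster 12: without that cluster it stood at 10.1 CPM with and 12.5 CPM without Cxcr6. Cstdc5, a stefin family gene, likewise stood at 178 and 243 CPM in IL-12 cells, and at 6.46 and 12.5 CPM once cluster 12 was left out. Tnfsf8, the CD30 ligand gene, stood at 8.69 CPM with and 24.0 CPM without Cxcr6 in IL-12 cells, but at 6.93 and 6.0 CPM outside cluster 12, while in control cells it stood at 12.3 and 165 CPM.

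The effector and exhaustion list was less uniform. In IL-12 cells with Cxcr6, 5 of 19 genes were 1.5-fold or more higher and 3 lower, and in control cells 11 of 19 were higher and 2 lower. Over all genes measured 6.86% were higher and 9.61% lower in IL-12, and 7.46% and 7.17% in control. The residency counts below are to be read beside these shares too. Outside cluster 12, 3 genes of the effector and exhaustion list were higher in IL-12, and among cells of 3000 to 8000 UMIs 7 were higher in control. For these subsets of cells the shares over all genes were not computed. Ifng, interferon-gamma, stood at 312 CPM with and 169 CPM without Cxcr6 in IL-12 cells, and 103 and 62.4 CPM in control cells. Tnf, tumour necrosis factor, held 96.5 CPM with and 206 CPM without Cxcr6 in IL-12 cells, and 39.7 and 23.2 CPM in control cells, but 21.9 and 19.8 CPM in IL-12 cells outside cluster 12. Pdcd1, the PD-1 receptor gene, was 1.67 times as high beside Cxcr6 in IL-12 cells, or 1.43 times outside cluster 12, and 1.86 times in control cells. Of the tissue residency list, 0 of 14 genes were 1.5-fold or more higher and 6 lower in IL-12 cells with Cxcr6, and 1, Prdm1, was higher and 2 lower in control cells, where 4 were lower among cells of 3000 to 8000 UMIs. Itgae, the integrin CD103 that binds epithelium, stood at 3.54 CPM with and 10.4 CPM without Cxcr6 in IL-12 cells, and at 17.9 and 18.7 CPM in control cells.

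Of the other chemokine receptors in CD8 T cells that held a Cxcr6 UMI, 10 of 16 genes were 1.5-fold or more lower and 1 higher in the IL-12 library, and 6 of 10 lower and 2 higher in the control library. Over all genes measured 9.61% were lower and 6.86% higher in IL-12, and 7.17% and 7.46% in control. Outside cluster 12, 5 of 10 receptors were lower and 3 higher in IL-12, with a median log2 ratio of -0.16 in place of -0.37. In control 5 of 9 were lower and 2 higher there, and shares over all genes were not computed outside that cluster. Ccr7, the lymph node homing receptor, held 33.9 CPM with and 159 CPM without Cxcr6 in IL-12 cells, and 45.3 CPM and 82.0 CPM in control cells. Cxcr4, the receptor for CXCL12, held 64.5 and 143 CPM in IL-12 cells and 120 and 274 CPM in control cells. Cxcr3, the receptor for the interferon-induced chemokines, held 17.0 and 29.4 CPM in IL-12 cells and 7.03 and 18.7 CPM in control cells. Xcr1, the receptor for XCL1, was higher beside Cxcr6 in both, on 11 IL-12 and 3 control UMIs in the cells without Cxcr6.

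Between the libraries, other receptor genes of CD8 T cells moved in both directions. Of 16 with at least 20 UMIs, 5 were 1.5-fold or more higher in IL-12, 7 lower and 4 within; by the median of ratios 5 were higher and 2 lower. Over all genes measured in these cells 12.2% were higher and 38% lower, or 23.7% and 22.4% by the median of ratios, and the counts of this paragraph are to be read beside those shares. Cxcr4 held 75.9 CPM in IL-12 and 164 CPM in control. Cxcr3 held 18.8 and 10.3 CPM and Ccr8, a receptor of activated and regulatory T cells, 22.9 and 13.4 CPM, higher in IL-12. Of the residency genes, with which CXCR6 is commonly listed, 0 of 14 were higher in IL-12 CD8 T cells and 11 were lower, with a median log2 ratio of -0.92 beside -0.31 for all genes, and by the median of ratios 0 were higher and 7 lower. Runx3, a transcription factor of cytotoxic and resident T cells, held 190 CPM in IL-12 and 535 CPM in control, and Itgae 4.53 and 18.1 CPM. Of the circulation and stem-like list, 2 of 12 were higher and 6 lower, or 3 and 2 by the median of ratios; S1pr1 held 8.76 CPM in IL-12 and 30.2 CPM in control, and Klrg1, a marker of short-lived effectors, 14.3 and 4.28 CPM. Of the effector and exhaustion list, 6 of 19 were higher and 3 lower, or 10 and 2 by the median of ratios, among them Ifng, higher with 292 CPM in IL-12 and 91.5 CPM in control, and Gzma, lower with 645 and 1399 CPM.

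Cxcl16 was a transcript of macrophages. They held 73.0% of all Cxcl16 UMIs of the IL-12 library and 76.8% of those of the control library, at 196 CPM (188 to 204) and 261 CPM (245 to 278). A Cxcl16 UMI was found in 50.2% of IL-12 macrophages and 50.7% of control macrophages, at median depths of 7211 and 5515 UMIs per cell. Thinned to 1000 UMIs, which left out 150 IL-12 and 84 control cells, the shares were 16.8% and 20.2%. CD8 T cells, which are not a known source of the ligand, held a Cxcl16 UMI in 5.02% of IL-12 and 4.78% of control cells at median depths of 6434 and 5794 UMIs, and a level of 8.68 and 10.8 CPM.

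By cluster, Cxcl16 was highest in cluster 6, the deeper macrophage cluster, with 200 CPM in 1174 IL-12 cells and 266 CPM in 368 control cells. Cluster 10, macrophages with a median of 1246 UMIs in IL-12 and 1190 in control, came next with 143 CPM (119 to 170) and 189 CPM (143 to 244). In cluster 13 the gene lay in the cells without a Cd79a or Cd79b UMI, the B cell receptor chains: 111 CPM in 153 IL-12 cells and 242 CPM in 31 control cells, against 5.32 and 7.47 CPM in the cells with one. In cluster 13 Zmynd15 held 0.525 UMIs per Cxcl16 UMI in IL-12 and 0.395 in control cells, more than in macrophages. Cluster 11 held 96.2 CPM in IL-12 cells and 54.9 CPM, on 3 UMIs, in control cells. Among neutrophil clusters, cluster 7 was highest, with 30.2 CPM (26.0 to 34.8) in IL-12 and 41.1 CPM (31.6 to 52.4) in control. In all neutrophils the level was 18.7 CPM in IL-12 and 19.1 CPM in control.

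Cxcl16 was lower in the IL-12 library by a margin that many genes exceeded. Macrophages of the IL-12 library held 0.751 times the control level (0.696 to 0.810), and 29.6% of 6328 measured genes lay below its log2 ratio of -0.41, beside a median of -0.11. The ratio was 0.754 (0.697 to 0.817) in cluster 6, where 11% of 6940 measured genes were 1.5-fold or more higher and 23.2% lower, and 0.755 (0.548 to 1.05) in cluster 10, where 23.7% of 2108 were higher and 13.6% lower. In macrophages without a Cd3 UMI it was 210 CPM in IL-12 and 281 CPM in control, and in those with one 173 CPM and 177 CPM. In neutrophils the ratio was 0.982 (0.813 to 1.19), a direction that turned to a log2 ratio of 0.37 when scaled by the median of ratios. Of 3351 genes measured in neutrophils 11.1% were 1.5-fold or more higher and 40% lower, against 21.9% and 20.3% by the median of ratios. Cluster 13 held 77.9 CPM of Cxcl16 in 267 IL-12 cells and 133 CPM in 95 control cells. That ratio of 0.588 (0.441 to 0.787) was past 1.5-fold, on 141 and 76 UMIs, and shares over all genes were not computed for this cluster. Over all sorted cells the level was 53.7 CPM in IL-12 and 71.6 CPM in control, a ratio of 0.750 (0.702 to 0.802).

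Macrophages with and without a Cxcl16 UMI differed in depth as well as in genes. The 855 IL-12 macrophages with the UMI had a median of 9069 UMIs and the 847 without it 2941, and the 291 and 283 control macrophages had 8232 and 2003; the part of depth in these differences was not tested. Within cluster 6 the medians were closer, 9645 and 8692 UMIs for 756 and 415 IL-12 cells and 9391 and 8392 for 240 and 117 control cells, and the next values are from that cluster. MHC class II genes, which present antigen to CD4 T cells, were higher with Cxcl16: H2-Eb1 stood at 5691 CPM with and 2972 CPM without in IL-12 cells, and at 2888 and 360 CPM in control cells. The complement genes of tissue macrophages were higher too, with C1qa at 1149 and 425 CPM in IL-12 cells and 1942 and 326 CPM in control cells. The 10 highest genes were ranked over all macrophages, where depths differed more. With H2-Eb1 and C1qa they held H2-Aa, H2-Ab1, the pseudogene H2-Ea-ps, Cd74, C1qb and C1qc. Cd83, a gene of activated antigen-presenting cells, and Vcam1, an adhesion molecule, completed them.

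On the other side, Chil3, a chitinase-like protein of monocytes and alternatively activated macrophages, held 84.2 CPM with and 476 CPM without Cxcl16 in IL-12 cluster 6, and 884 and 4278 CPM in the control library; its IL-12 ratio over all macrophages, 0.215, was 0.614 among cells of 3000 to 8000 UMIs. Thbs1, thrombospondin 1, held 620 and 1613 CPM in IL-12 and 1111 and 3670 CPM in control, and F13a1, a coagulation factor of monocytes, 62.2 and 141 CPM in IL-12 and 71.7 and 238 CPM in control. The haemoglobin genes led the low side over all macrophages, Hba-a1 with 25.5 CPM with and 1338 CPM without Cxcl16 in IL-12 cells and 2.08 and 1610 CPM in control cells. In cluster 6 alone Hba-a1 was at 26.5 and 157 CPM in IL-12 cells and 2.20 and 4.98 CPM in control cells, so these transcripts lay mostly outside it. Reads of the near-identical haemoglobin copies can be split between them, and the 4 red cell markers summed to 1105 CPM in IL-12 and 1164 CPM in control macrophages. Over all macrophages 4.23% of 7241 measured genes were 1.5-fold or more higher with Cxcl16 and 5.95% lower in IL-12, and 11.3% of 5068 higher and 6.81% lower in control.

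The proteases that release CXCL16 were measured beside it. Adam10, which sheds it constitutively, held 56.8 CPM in IL-12 macrophages and 115 CPM in control macrophages, 0.495-fold (0.438 to 0.560). Adam17, the inducible sheddase, held 99.2 and 98.3 CPM, and Rhbdf2, an ADAM17 maturation factor, 65.0 and 81.3 CPM, so 1 of the 3 measured genes was 1.5-fold or more lower, beside 20.8% of all genes measured in macrophages. Timp3 was not analysed here. Of the other scavenger receptors, 6 of 9 were lower in IL-12 macrophages and 1 higher, or 4 and 1 by the median of ratios, where over all genes 20.8% were lower and 10.8% higher, or 15.25% and 14.52%: Mrc1, the mannose receptor, held 63.7 and 156 CPM, Olr1, the oxidised lipoprotein receptor LOX-1, 25.6 and 90.1 CPM, and Cd68 375 and 224 CPM.

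Other chemokines of macrophages spread far more widely than Cxcl16. Of 25 genes with at least 20 UMIs, 10 were 1.5-fold or more higher in IL-12, 7 lower and 8 within, and the median log2 ratio was 0.30 beside -0.11 for all genes. Over all genes measured in macrophages 10.8% were higher and 20.8% lower, and the counts of this paragraph are to be read beside those shares. The CXCR3 ligands Cxcl9, Cxcl10 and Cxcl11 held 196, 132 and 58.9 CPM in IL-12 macrophages and 50.8, 30.2 and 13.7 CPM in control macrophages. Ccl17, a ligand of CCR4, held 2.25 CPM in IL-12 and 35.4 CPM in control. Ccl5 held 1027 and 210 CPM, and T cells are a rich source of it. Of the interferon-induced and NF-kB genes, 5 of 13 were higher and 1 lower in IL-12; Icam1, an adhesion molecule, held 115 CPM in IL-12 and 38.4 CPM in control, and Nfkb1 209 and 421 CPM. In the same macrophages Il15, the cytokine presented to CXCR6-bearing T cells, held 14.3 CPM in IL-12 and 3.30 CPM, on 12 UMIs, in control, 4.33-fold (2.42 to 8.54), and 6 of 9 genes of that list were 1.5-fold or more higher and 0 lower. Among these Il2rb and Il2rg are receptor chains that T cells express, and the list holds other such chains. The summed T cell markers given above were higher in IL-12 macrophages too. The part of T cell transcripts in the count was not tested.

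**Figure D5:**
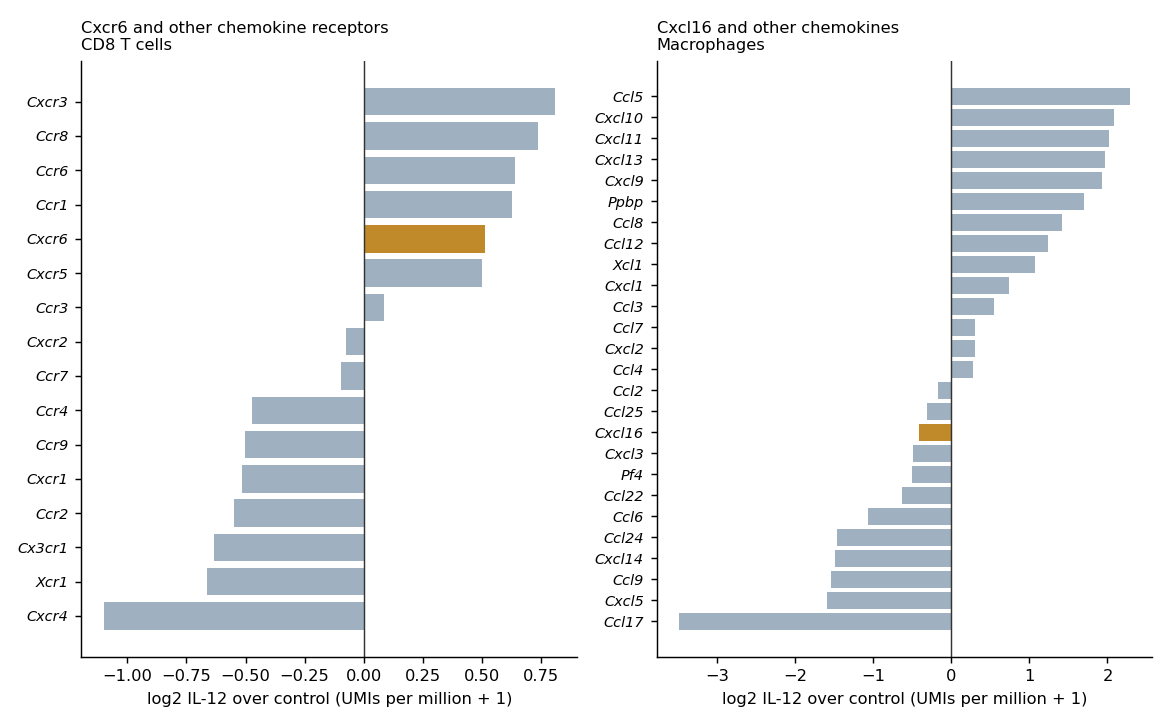
Log2 ratio (pseudocount 1 CPM) of IL-12 over control for the other chemokine receptors in CD8 T cells beside Cxcr6 (left) and the other chemokines in macrophages beside Cxcl16 (right), for the genes reported here with at least 20 UMIs. Cxcr6 stands at 0.51 and Cxcl16 at -0.41, while the receptors run down to -1.10 for Cxcr4 and the chemokines between -3.49 for Ccl17 and 2.29 for Ccl5.

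Receptor and ligand were highest in different classes, and some cells held UMIs of both. A UMI of each was found in 340 of 12979 IL-12 cells and 30 of 4232 control cells, among them 133 IL-12 and 7 control macrophages, and 140 IL-12 and 21 control CD8 T cells. Over the 24 pools of cluster and library with at least 50 cells, 13 of IL-12 and 11 of control, the levels of Cxcr6 and Cxcl16 had a Pearson correlation of -0.284; the pools share libraries and depth, and the value is a description. Of 8605 genes, the 8 most like Cxcr6 over these pools were Cd27 (0.965), Cst7 (0.960), Sh2d2a (0.958), Cd3g (0.951), Cd3e (0.947), Il2rb (0.947), Ctsw (0.943) and Lat (0.943). These are a costimulatory receptor, a cystatin of cytotoxic cells, a T cell adaptor, chains of the CD3 complex, a chain of the interleukin 2 and 15 receptors, a lymphocyte cathepsin and an adaptor of T cell receptor signalling. The 8 most like Cxcl16 were Psap (0.947), Timp1 (0.931), Plekho1 (0.925), Fcgrt (0.924), Renbp (0.919), Ly86 (0.915), Plk2 (0.913) and Ccl7 (0.906), among them a lysosomal saposin precursor, a protease inhibitor, the neonatal Fc receptor and a monocyte chemokine. With Spearman's rank correlation 4 of the 8 for Cxcr6 and 3 of the 8 for Cxcl16 were again among the first 8; over IL-12 pools alone it was 5 and 4, and over control pools alone 0 and 3.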

How the data were processed

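Per library, the deposited tables list cells in rows and genes in columns as log2 values, read from the values themselves as log2 of CPM plus 1 (CPM being counts per 1000000), beside cluster, class and clone columns; a receptor table adds phase calls. Per the submitters' processing notes, Cell Ranger 2.1.0, STAR 2.6.1, the mm10 genome and Partek were used. UMIs were recovered by undoing the logarithm and taking each cell's smallest value above 0 as 1 UMI; all but 13 of 13883686 IL-12 and 6 of 4251108 control values came out whole within 0.1. The tables' genes hold 70.4% of IL-12 and 72.9% of control UMIs. Levels, ratios and shares carry exact Poisson, conditional binomial and Clopper-Pearson 95% intervals, and log2 ratios a pseudocount of 1 CPM (10 CPM for cells with and without a UMI). Measured genes have at least 50 UMIs. Between libraries they also have a UMI in 5% of the cells of either set, a rule not applied between cells with and without a UMI of a member. Scrublet called 0 IL-12 and 1 control doublets, too few to have worked, so no doublets were removed.

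Groups follow the labels. The genes named are both members, up to 6 per list by size of ratio, the 8 most alike over pools, and the 10 highest and lowest between cells with and without a UMI; other list genes given beside a Cxcr6 UMI (Pdcd1, Ccr7, Cx3cr1, Prdm1) were picked after their values were seen. The members and lists were chosen with earlier results of these data known. List counts by the median of ratios were added after seeing the data. Computations were tested on simulated data. Some genes counted in the lists are not reported here by name.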

Additional observations from a re-analysis of the deposited data

How the results depend on the processing

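No IL-12 over control ratio of Cxcr6 or Cxcl16 past 1.5-fold changed sign under the alternatives run. Between cells with and without a Cxcr6 UMI some did: in IL-12, Tnfsf8, 0.361 times as high, became 1.15 and Tnf, 0.468 times, 1.10 without cluster 12, and Ngp, 0.156 times, 1.02 at 3000 to 8000 UMIs. Near 1, the Cxcl16 ratio in neutrophils changed sign under 4 alternatives and the Cxcr6 ratio in cluster 8 under 3. In all, 53 of 85 alternatives for the main values left them within their counting interval. Of 96 alternatives for other values, 79 left them unchanged by rules that differed with the value. Ratios of single clusters and of Cxcr6 in macrophages had to stay within their counting interval. The highest cluster had to stay the same, and counts of list genes and of most alike genes had to stay within 1.5-fold. Where values moved, the log2 ratios of IL-12 over control were as follows. For Cxcr6 in all sorted cells (1.32), median-of-ratios scaling gave 1.44, a mean over cells 1.46, a pseudocount of 10 CPM 1.27 and weighting to control class shares, added after seeing the data, 0.64. For Cxcr6 in CD8 T cells (0.51), median of ratios gave 0.84 and leaving out clusters 11 and 12 gave 0.60. Both were past 1.5-fold where the main value was not, and classes by marker UMIs gave 0.32. Of those added later, clones of 1 cell gave 0.0722, of 2 to 4 cells 0.0376 and of 10 or more 0.40. Leaving out the largest clone, also added later, gave 0.43. Here and below the largest clone is that with the most cells of any class. In IL-12 it had 669 cells, 590 of them CD8 T cells at 973 CPM. The IL-12 clone with the most CD8 T cells, 623 at 586 CPM, was not left out in turn. For Cxcr6 in CD4 T cells (0.69), classes by marker UMIs gave 1.10. For Cxcr6 in macrophages (2.45), leaving out the 5% highest Scrublet scores gave 3.29, a pseudocount of 10 CPM 1.83 and leaving out cells with a Cd3 UMI 0.94; in cluster 12 (0.73), leaving out those scores gave 0.23 and leaving out cells with macrophage markers 1.09. For Cxcl16, median of ratios gave -0.30 in all cells (-0.41), -0.29 in macrophages (-0.41) and 0.37 in neutrophils (-0.03); in all cells a mean over cells gave -0.19 and leaving out the 5% highest Scrublet scores, added later because the caller had not worked, -0.29. Thinning to 1000 and 2000 UMIs lowered the share of CD8 T cells with Cxcr6 to 45.3% and 62.9% in IL-12 and 34.8% and 49.4% in control, and of macrophages with Cxcl16 to 16.8% and 30.5% in IL-12 and 20.2% and 34% in control, by construction. The log2 ratio of Cxcr6 in clones of 10 or more over 1 cell was 0.86 in IL-12, and 0.59 with small clones of 1 to 4 cells, 0.47 with the receptor table's size classes, 0.74 without the largest clone, 0.72 without cluster 12 and 0.73 with both chains in small clones; in control it was 0.53, and 0.20 and 0.19 under the first 2 of these. Median-of-ratios scaling shifted every log2 ratio by 0.11 in all cells, 0.32 in CD8 T cells, 0.12 in macrophages and 0.40 in neutrophils. Other causes were not tested. No paired analysis was possible because each treatment has 1 expression library. The 1 pool per treatment gives no spread between mice, and values on under 20 UMIs have wide counting intervals.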
